A study of Homo sapiens with 6 samples.

Results

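The G9a/GLP complex genes are EHMT2, EHMT1, WIZ, ZNF644 and CDYL. They were chosen by symbol, and all 5 were found among the 55765 rows of the expression table. RNA was sequenced from SK-NEP-1 cells given an siRNA against EHMT2 (siEHMT2, 3 libraries) or a control siRNA (siNC, 3 libraries). SK-NEP-1 is an established line that the submitters label as Wilms tumor; both groups are this 1 line, and dose, time and siRNA sequence were not used here. The purpose of the comparison was to see how transcripts differ when EHMT2 is knocked down, and it is read here for the target and its partners, library by library. Values are FPKM, in which a gene's fragments are divided by its length and by the size of the library.

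EHMT2 (also called G9a) and EHMT1 (GLP) are paralogous methyltransferases that work as a heterodimer and place mono- and dimethyl marks on lysine 9 of histone H3, a mark of silenced euchromatin. WIZ and ZNF644 are zinc finger proteins that bind the pair and help bring it to chromatin. CDYL carries a chromodomain, reads methylated histone H3 and connects the pair with the repressor REST. The complex is best known for silencing developmental and germline genes.

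Because EHMT2 and EHMT1 are close relatives, the longest stretch of identical bases between their protein-coding transcripts (5 of EHMT2 and 19 of EHMT1 in GENCODE release 29, which is on GRCh38) was looked up, since it bears on whether reads or an siRNA could be shared. It is 20 bases long, shown in capitals with its surroundings in both messages, 5′ to 3′:
EHMT2-204 (chromosome 6), bases 1738 to 1817 of the transcript: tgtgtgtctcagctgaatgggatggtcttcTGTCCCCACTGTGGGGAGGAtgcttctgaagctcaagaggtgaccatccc
EHMT1-203 (chromosome 9), bases 1915 to 1994 of the transcript: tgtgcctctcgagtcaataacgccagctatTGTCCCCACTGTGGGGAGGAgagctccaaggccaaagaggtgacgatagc
Set side by side without gaps, 52 of the 80 bases in these windows are the same. The next longest identical run has 19 bases:
shared by EHMT2-204 from base 3128 and EHMT1-203 from base 3287: tgtgcggccagctcagcat
In all, the protein-coding transcripts of both genes share 3 different words of 19 bases, about the length of an siRNA's paired part. EHMT2 shares no word of 19 bases with WIZ, ZNF644 or CDYL. These matches are a description of the reference sequences, and where the siRNA lies relative to them was not tested.

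Rows averaging 1 FPKM or more across the 6 libraries entered the test; there were 12859 of them, and all 5 genes were included. FPKM summed to between 254293 and 272271 in siEHMT2 libraries and between 244702 and 260890 in siNC libraries, and read depth is unknown. Of 9 Wilms tumor and nephron progenitor markers, 5 had a mean of at least 1 FPKM, with SIX2 at 0.0923 to 0.234 FPKM and PAX2 at 0.0414 to 0.119 FPKM over all libraries, and a summed level of 12 to 12.5 FPKM in siEHMT2 and 11.6 to 12.3 FPKM in siNC libraries. Of 10 Ewing sarcoma markers, 9 did, with NKX2-2 at 103 to 134 FPKM and a summed level of 460 to 518 FPKM in siEHMT2 against 636 to 678 FPKM in siNC libraries. Most of the gap between these sums was CCND1, at 219, 232 and 213 FPKM in siEHMT2 against 365, 369 and 388 FPKM in siNC libraries, the only marker limma called (log2 fold change −0.75, adjusted p = 0.0287). BCL11B, FLI1 and STEAP1 were also lower in siEHMT2 without overlap (log2 fold change −0.60, −0.33 and −0.28). The groups overlapped for NKX2-2, PRKCB, CD99, NR0B1 and GLI1. Of the 9 Ewing sarcoma markers tested, 4 were lower without overlap, against 11.7% of all tested rows. An unadjusted limma p under 0.05 was found for 4 of the 9, against 18.8% of all tested rows. Their median log2 fold change was −0.28, against 0.01 over all tested rows. The defining nephron progenitor markers SIX2 and PAX2 were thus near 0 in a line labelled as Wilms tumor. Markers of fibroblasts (1 of 5 at a mean of 1 FPKM or more, summed 1.09 to 1.59 FPKM in siEHMT2 and 1.41 to 1.64 FPKM in siNC libraries), epithelium (1 of 4, 4.27 to 8.12 FPKM in siEHMT2 and 3.9 to 4.8 FPKM in siNC libraries) and leukocytes (0 of 3, 0.052 to 0.27 FPKM in siEHMT2 and 0.0907 to 0.109 FPKM in siNC libraries) were low, and none of the markers was at 0 in all libraries. The part of these differences in the results was not tested. The deviation of siEHMT2 replicate 3 from the gene means had a Spearman rho of 0.57 with transcript GC content across genes, against −0.34 to 0.11 in the other libraries. The siEHMT2 libraries 1 and 2 had −0.14 and 0.11, so this library stands apart within its own group. Nothing in the labels ties the libraries to separate cultures, and the spread behind each p-value may therefore be a technical one.

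EHMT2, the siRNA target, had 7.61, 8.26 and 16.2 FPKM in siEHMT2 replicates 1, 2 and 3, against 27.5, 27.2 and 22.7 FPKM in siNC replicates 1, 2 and 3. All siEHMT2 libraries lay below all siNC libraries, and siEHMT2 replicate 3 lay between the other libraries of its group and the controls. Set against the siNC mean, replicates 1 and 2 retained 29.5% and 32.0% of EHMT2 and replicate 3 retained 62.9%. The log2 fold change on the log2(FPKM + 1) scale was −1.27 ± 0.24 (SE, n = 3 per group, 95% interval −1.81 to −0.72), and limma's adjusted p of 0.0609 over all tested rows missed the threshold of 0.05. In bulk RNA, fewer cells carrying a transcript and less of it per cell cannot be told apart. EHMT2 still ranked 13th from the bottom by log2 fold change among the tested rows. It ranked 37th from the bottom by the ratio of mean FPKM and 128th from the smallest by limma p. EHMT2 came within the threshold in 5 of 20 alternatives. It did so when siEHMT2 replicate 3 was left out (−1.58, limma adjusted p = 0.0163), or both libraries numbered 3 (−1.67, limma adjusted p = 0.00203). It also did so with array weights (−1.56, limma adjusted p = 0.000364), a minimum mean of 5 FPKM (−1.27, limma adjusted p = 0.0388) and the GC correction given below. In these fits limma called 172, 1890, 3797, 134 and 104 rows, against 71 in the main fit. EHMT2 missed the threshold without any other single library (limma adjusted p = 0.0857 to 0.259). It also missed it with the replicate number as a block (limma adjusted p = 0.255).

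EHMT1, the catalytic partner, had 9.21, 9.83 and 9.54 FPKM in siEHMT2 libraries, against 8.56, 8.27 and 8.04 FPKM in siNC libraries. The groups did not overlap, and the spread within each was the smallest of the 5 genes. EHMT1 averaged 9.53 ± 0.306 FPKM in siEHMT2 and 8.29 ± 0.262 FPKM in siNC libraries (SD, n = 3 each), with a log2 fold change of 0.18 ± 0.09 (SE, 95% interval −0.03 to 0.39) that did not pass (limma adjusted p = 0.326). EHMT1, which shares the short runs shown above with EHMT2, was higher in FPKM in each siEHMT2 library than in each siNC library. After the correction for GC content given below, its groups overlapped and its log2 fold change was 0.08. Whether the siRNA acts on EHMT1 was not tested. The siEHMT2 replicate 3, with the most EHMT2 of its group, lay between replicates 1 and 2 in EHMT1.

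WIZ, which carries many zinc fingers and joins EHMT2 and EHMT1 to chromatin, had 13.2, 15.3 and 13.9 FPKM in siEHMT2 libraries, against 12.7, 12.5 and 11.1 FPKM in siNC libraries. The groups did not overlap, but siEHMT2 replicate 1 and siNC replicate 1 lay close to each other. The log2 fold change was 0.21 ± 0.10 (SE, 95% interval −0.02 to 0.44, limma adjusted p = 0.306) and did not pass. It passed in 1 of 20 alternatives, the fit with array weights (0.24, limma adjusted p = 0.0318). In that fit limma called 3797 of the 12859 tested rows, against 71 in the main fit.

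ZNF644, the other zinc finger partner, had 10.4, 10.9 and 7.2 FPKM in siEHMT2 libraries, against 11.9, 12.9 and 11.7 FPKM in siNC libraries. The groups did not overlap; siEHMT2 replicate 3 was far below the rest, and replicates 1 and 2 lay just under the controls. The log2 fold change was −0.34 ± 0.15 (SE, 95% interval −0.68 to −0.0032) with a limma adjusted p of 0.262, so it did not pass. Without siEHMT2 replicate 3 it was −0.17 (limma adjusted p = 0.331), a change of over 1.5 times; this is the library with the most EHMT2 of its group.

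CDYL, the chromodomain partner, had 8.58, 7.03 and 8.11 FPKM in siEHMT2 libraries, against 9.21, 8.50 and 7.24 FPKM in siNC libraries. The groups overlapped. The log2 fold change was −0.06 ± 0.12 (SE, 95% interval −0.34 to 0.21, limma adjusted p = 0.816), and its sign turned when siEHMT2 replicate 2 (0.01) or siNC replicate 1 (0.006) was left out.

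**Figure D1:**
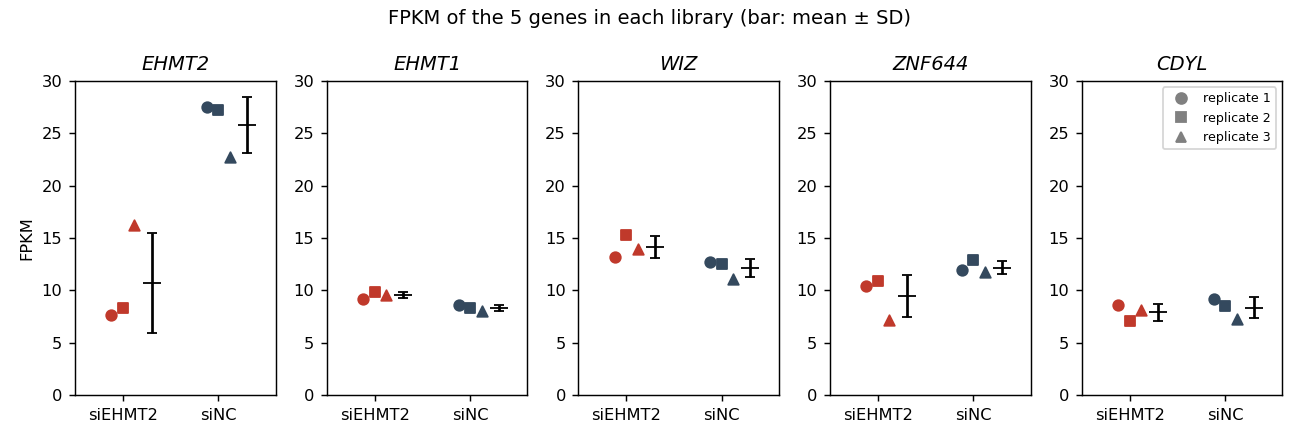
FPKM of EHMT2, EHMT1, WIZ, ZNF644 and CDYL in each library, with siEHMT2 at the left and siNC at the right of each panel; symbols mark replicates and the bars the mean ± SD of 3 libraries. EHMT2 runs from 7.61 to 16.2 FPKM in siEHMT2 against 22.7 to 27.5 FPKM in siNC libraries, and the partners stay between 7.03 and 15.3 FPKM.

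None of the 5 genes passed limma's adjusted threshold, which 0.552% of all tested rows passed (0.342% higher and 0.21% lower in siEHMT2). At an unadjusted p under 0.05, 2 of the 5 did (EHMT2 and ZNF644), against 18.8% of all tested rows. The groups did not overlap for 4 of the 5, against 26.3% of all tested rows. These were 2 genes that were higher (EHMT1 and WIZ) and 2 that were lower (EHMT2 and ZNF644), against 14.6% of all tested rows higher and 11.7% lower without overlap. With this background, groups that do not overlap are common in these libraries. For the partners, the intervals above give the sizes that the 6 libraries leave possible.

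Whether EHMT2 differed more than its partners was asked within each library, as log2(FPKM + 1) of EHMT2 minus that of the partner. Against EHMT1 this difference averaged 0.08 ± 0.55 in siEHMT2 and 1.53 ± 0.12 in siNC libraries (SD, n = 3 each), a contrast of −1.45 (two-sided exact permutation p = 0.1, adjusted 0.133 over 4 partners). It was −1.47 against WIZ and −1.20 against CDYL, with the same exact permutation p. The smallest p that 3 against 3 libraries can give is 0.1, so these 3 contrasts could not pass. Against ZNF644 the contrast was −0.92 (exact permutation p = 0.3). In siEHMT2 replicate 3 the ratio of EHMT2 to ZNF644 in FPKM was 2.26, inside the range of 1.95 to 2.32 of siNC libraries, while siEHMT2 replicates 1 and 2 had 0.731 and 0.759.

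The order of the genes depends on how length enters. In siNC libraries EHMT2 had the highest FPKM (25.8 ± 2.67, SD), WIZ (12.1 ± 0.862) and ZNF644 (12.1 ± 0.635) followed, and CDYL (8.32 ± 0.997) and EHMT1 (8.29 ± 0.262) were lowest; neither the middle pair nor the lowest pair differed beyond its spread. In siEHMT2 libraries WIZ was highest (14.1 ± 1.03), and EHMT2 (10.7 ± 4.81), EHMT1 (9.53 ± 0.306), ZNF644 (9.50 ± 2.01) and CDYL (7.91 ± 0.797) followed, and the libraries of each neighbouring pair overlapped. The deposited values of many genes with several transcripts behave as fractions whose denominator is the length of all exons of the gene together: for 59.8% of 10441 such rows, multiplying by the GENCODE exon length made the values whole at the sixth decimal (to within 0.001), against 0.632% for that length plus 1 base. The smallest such denominators were 7289 bases for EHMT2, 15257 for EHMT1, 8155 for WIZ, 7600 for ZNF644 and 4531 for CDYL. These equal the GENCODE exon length for EHMT2 and CDYL and fall below it for EHMT1, WIZ and ZNF644, so for those 3 genes the length rests on the values alone. For the same number of fragments, EHMT1, with the longest exon total, is given the lowest FPKM.

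Multiplied back by that length in kilobases, FPKM becomes FPM, in which fragments are scaled by library size only. EHMT2 had 55.5, 60.2 and 118.4 FPM in siEHMT2, against 200.4, 198.3 and 165.7 in siNC libraries. EHMT1 had 140.6, 149.9 and 145.5 FPM in siEHMT2, against 130.6, 126.1 and 122.6 in siNC libraries. On this scale EHMT2 held 28.3%, 28.7% and 44.9% of the fragments of both methyltransferase genes in siEHMT2 libraries and 60.6%, 61.1% and 57.5% in siNC libraries. EHMT2 thus had more fragments than EHMT1 in every siNC library and fewer in every siEHMT2 library. In FPKM it was still the higher one in siEHMT2 replicate 3 (ratio of EHMT2 to EHMT1 1.70). FPM is not divided by length, so it does not say which transcript is more abundant. Together both genes had 223.3 ± 35.8 FPM in siEHMT2 and 314.6 ± 23.0 in siNC libraries (SD, n = 3 each). The siEHMT2 values of 196.0, 210.1 and 263.9 all lay below the siNC values of 331.0, 324.4 and 288.3.

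WIZ had 108.1, 124.5 and 113.1 FPM in siEHMT2, against 103.3, 101.9 and 90.5 FPM in siNC libraries. ZNF644 had 79.2, 82.7 and 54.7 FPM in siEHMT2, against 90.2, 97.7 and 88.7 FPM in siNC libraries, and CDYL stayed between 31.8 and 41.7 FPM in all libraries. In siNC libraries the order by FPM was EHMT2 (188.2 ± 19.5, SD, n = 3), EHMT1 (126.4 ± 3.99), WIZ (98.6 ± 7.03), ZNF644 (92.2 ± 4.82) and CDYL (37.7 ± 4.52), where WIZ and ZNF644 overlapped. EHMT1 thus stood next to EHMT2 by FPM and level with CDYL by FPKM. In FPKM, the ratio of EHMT2 to WIZ was 0.574, 0.541 and 1.17 in siEHMT2 libraries and 2.17, 2.18 and 2.05 in siNC libraries. The ratio of EHMT2 to CDYL was 0.887, 1.18 and 2.0 in siEHMT2 libraries and 2.99, 3.2 and 3.14 in siNC libraries. Both ratios were lower in each siEHMT2 library than in each siNC library, and closest to them in replicate 3.

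**Figure D2:**
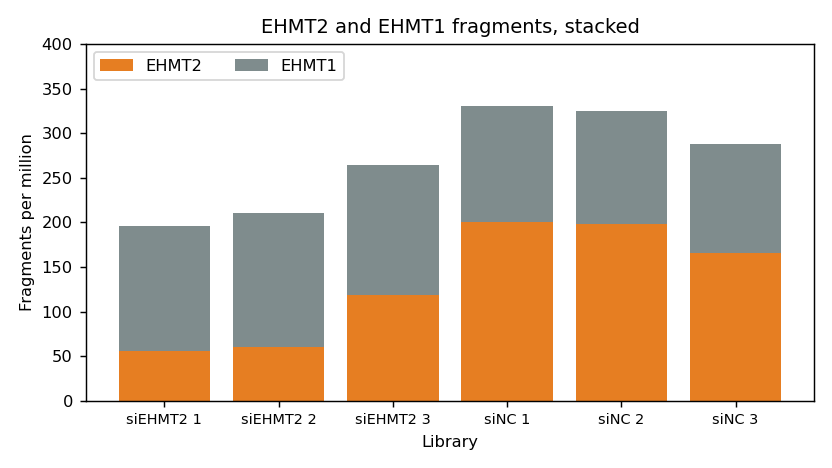
Stacked bars of EHMT2 and EHMT1 FPM (vertical axis) in each of the 6 libraries, siEHMT2 at the left. EHMT2 makes up 28.3% to 44.9% of the bar in siEHMT2 and 57.5% to 61.1% in siNC libraries.

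Fold changes across all genes moved with transcript GC content (Spearman rho 0.39 across 11727 rows, which are not independent replicates), and the members span a wide range of it. ZNF644 transcripts have 38.0% GC, and the 1003 rows within 2 percentage points had a median log2 fold change of −0.13. WIZ has 63.7% and EHMT1 57.1%, and rows near them had medians of 0.14 and 0.11. For these partners the direction was thus the same as that of genes of similar GC. EHMT2, at 59.8%, went against its neighbours in GC, whose median was 0.12.

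After a loess correction for GC content in each library, EHMT2 was at −1.37 ± 0.21 (SE) on the log2 scale and passed (limma adjusted p = 0.0366). The corrected values of 3 partners were nearer to 0: 0.08 for EHMT1, 0.10 for WIZ and −0.21 for ZNF644, with limma adjusted p of 0.647, 0.645 and 0.312. The groups then overlapped for EHMT1 and WIZ and did not for ZNF644. CDYL, at 49.6% GC, was at −0.08 (limma adjusted p = 0.755). The contrast of EHMT2 with ZNF644 was −1.16 after this correction (two-sided exact permutation p = 0.1), against −0.92 before it (exact permutation p = 0.3).

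**Figure D3:**
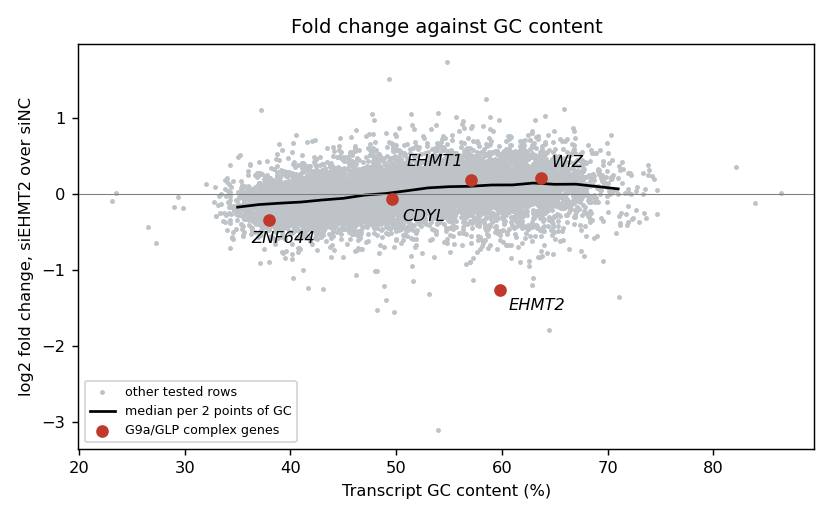
Log2 fold change of siEHMT2 over siNC (vertical axis) against transcript GC content in percent (horizontal axis) for tested rows with a GC value; red points are the 5 genes and the line is the median per 2 percentage points of GC. ZNF644, CDYL, EHMT1 and WIZ lie near the line, and EHMT2, at −1.27, lies far below it.

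**Figure D4:**
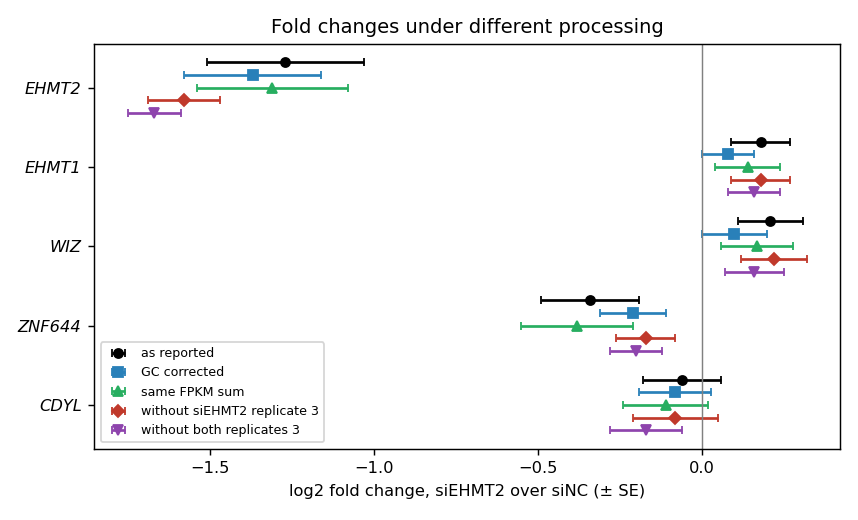
Log2 fold change (horizontal axis, ± SE) of each gene as reported, after GC correction, after rescaling to the same FPKM sum, without siEHMT2 replicate 3 and without both libraries numbered 3. EHMT2 lies between −1.67 and −1.27 in these fits, and the partners lie between −0.38 and 0.22.

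The genes with the closest profile to EHMT2 over the 6 libraries were TXNIP, SLC2A1, DPYSL2, LMX1B and G0S2, by the mean absolute difference of log2 values centred on each gene's mean (0.10, 0.18, 0.18, 0.18 and 0.19) among 10905 other protein-coding rows. TXNIP, which binds thioredoxin and restrains glucose uptake, had 2.3, 2.34 and 5.48 FPKM in siEHMT2, against 8.38, 8.12 and 6.59 FPKM in siNC libraries. Like EHMT2, it was lowest in siEHMT2 replicates 1 and 2 and intermediate in replicate 3. All 5 genes were chosen for their likeness to EHMT2, so a shared pattern is no separate result. SLC2A1, the glucose transporter GLUT1, had 3.92, 3.66 and 7.82 FPKM in siEHMT2, against 11.1, 10.5 and 8.65 FPKM in siNC libraries. LMX1B, a LIM homeodomain transcription factor, averaged 1.13 ± 0.632 FPKM in siEHMT2 and 2.88 ± 0.472 FPKM in siNC libraries. DPYSL2, a tubulin-binding protein of axon growth, averaged 17.4 ± 2.55 FPKM in siEHMT2 and 39.6 ± 2.96 FPKM in siNC libraries and was the only one of the 5 past the threshold (limma adjusted p = 0.0265). Its limma adjusted p was 0.0642 to 0.147 when any 1 library other than siEHMT2 replicate 3 was left out. G0S2, an inhibitor of lipolysis, had 18.6 FPKM in siEHMT2 replicate 3, above the 14.6 FPKM of siNC replicate 3, so its groups overlapped.

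**Figure D5:**
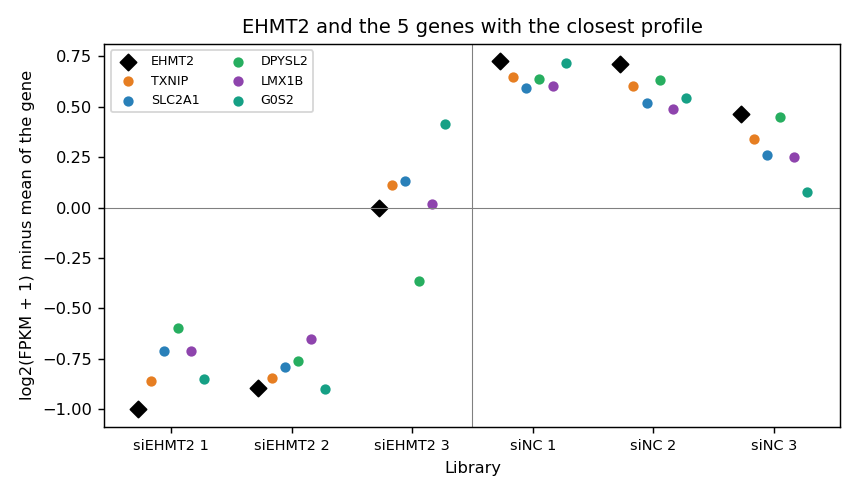
Log2(FPKM + 1) minus the gene's mean (vertical axis) for EHMT2 (diamonds) and the 5 genes with the closest profile in each library, siEHMT2 at the left of the line. The siEHMT2 libraries 1 and 2 lie lowest for all 6 genes, and replicate 3 lies between them and the siNC libraries for EHMT2, TXNIP, SLC2A1, LMX1B and DPYSL2.

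The partners had rows at smaller distances. EHMT1 was nearest to PELO, a ribosome rescue factor, and LRRC41 (0.01 each). WIZ was nearest to AP2A1, an adaptor of clathrin vesicles, and ADD2, a membrane skeleton protein (0.01 and 0.02). ZNF644 was near FZD3, a WNT receptor (0.02), and CDYL was nearest to HMOX1, the haem oxygenase gene, and TYW1B (0.01 and 0.02). The distances of the partners from EHMT2 were 0.60 for CDYL, 0.63 for ZNF644, 0.72 for EHMT1 and 0.74 for WIZ. Among 10905 rows these ranked 2421, 3611, 7870 and 8377 from the closest. The measure depends on the size of the differences as well as on their pattern.

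Among 28 further proteins that associate with EHMT1 and EHMT2, 25 were tested, 10 of them higher and 15 lower in siEHMT2, beside 6740 higher and 6119 lower over all tested rows. Their median log2 fold change was −0.09, against 0.01 over all tested rows, and it was −0.01 without both libraries numbered 3. Limma called none of them, against 0.552% of all tested rows, and 2 of the 25 had an unadjusted p under 0.05, against 18.8% of all tested rows. RCOR1, the CoREST scaffold, had 21.0, 21.5 and 19.3 FPKM in siEHMT2, against 27.1, 28.2 and 24.7 FPKM in siNC libraries (log2 fold change −0.36 ± 0.10, limma adjusted p = 0.111). MAX, the MYC partner that also sits in an E2F6 complex with EHMT1 and EHMT2, had 9.47, 8.76 and 9.81 FPKM in siEHMT2, against 7.46, 7.50 and 7.33 FPKM in siNC libraries (0.30 ± 0.09, limma adjusted p = 0.154). In both genes the groups were apart. DNMT3B, a DNA methyltransferase, averaged 4.10 ± 0.743 FPKM in siEHMT2 and 3.21 ± 0.138 FPKM in siNC libraries, with overlapping groups. ZNF518A, a zinc finger gene, averaged 2.83 ± 0.1 FPKM in siEHMT2 and 3.49 ± 0.459 FPKM in siNC libraries, with groups apart (limma adjusted p of 0.32 and 0.348 for these genes).

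Of 9 other H3K9 methyltransferases, cofactors and HP1 proteins, 2 were higher and 7 lower (median −0.18, and −0.07 without both libraries numbered 3). Limma called none, and 1 of the 9, CBX5, had an unadjusted p under 0.05, against 18.8% of all tested rows. CBX5, which encodes HP1 alpha, had 26.9, 31.4 and 24.3 FPKM in siEHMT2, against 38.2, 41.4 and 36.2 FPKM in siNC libraries (log2 fold change −0.48 ± 0.12, limma adjusted p = 0.0921). CBX1, SUV39H2 and TRIM28 were at −0.16, −0.22 and −0.18, none past the threshold. SUV39H2 was at −0.10 without siEHMT2 replicate 3, TRIM28 at −0.12 without it and at −0.11 without siNC replicate 3, and both were at −0.05 without both libraries numbered 3. Of the H3K9 demethylases 8 of 9 were tested, 4 higher and 4 lower (median 0.01, and −0.13 without both libraries numbered 3), with none called and 1 of the 8 at an unadjusted p under 0.05, against 18.8% of all tested rows. That gene, JHDM1D (KDM7A), had 3.25, 3.69 and 3.6 FPKM in siEHMT2, against 6.67, 7.01 and 4.83 FPKM in siNC libraries (−0.65 ± 0.14, limma adjusted p = 0.0727). PHF8, PHF2 and KDM4B, at 0.17, 0.13 and 0.10, had overlapping groups. PHF8 was at 0.11 without siNC replicate 3. KDM4B was at −0.03 without siEHMT2 replicate 3, at 0.04 without siNC replicate 3 and at 0.23 without siEHMT2 replicate 1.

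Germline genes of the kind silenced by EHMT2 with E2F6 complexes stayed near 0. None of 20 reached a mean of 1 FPKM, 14 were listed at 0 in all 6 libraries, and the highest, TEX19, averaged 0.636 FPKM. Their summed level was 1.17, 0.726 and 0.919 FPKM in siEHMT2, against 1.13, 1.07 and 1.15 FPKM in siNC libraries, with overlapping groups.

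Genes next to the members were read because reads of overlapping genes can be divided between them and no strand setting is stated. Beside EHMT2, the antisense row EHMT2-AS1 and the neighbours C2 and SLC44A4 reached at most 0.208 FPKM in any library. ZBTB12 is a zinc finger gene 2 steps from EHMT2 in the order of protein-coding genes. It had 4.82, 5.63 and 7.60 FPKM in siEHMT2, against 4.22, 3.75 and 2.75 FPKM in siNC libraries (log2 fold change 0.61 ± 0.18, limma adjusted p = 0.127). Its groups did not overlap, and siEHMT2 replicate 3, with the most EHMT2 of its group, had the most ZBTB12. That library also stood apart in its relation to GC content (rho 0.57). The log2 fold change of ZBTB12 ranged from 0.46 to 0.74 with 1 library left out. It was 0.32 without both libraries numbered 3. A relation between EHMT2 and ZBTB12 was not tested. BARHL2 beside ZNF644 and RASAL3 beside WIZ were at −0.22 and −0.30 with overlapping groups, and ARRDC1 beside EHMT1 at 0.11. Without siEHMT2 replicate 3 RASAL3 was at −0.47 and ARRDC1 at 0.01, without siEHMT2 replicate 1 ARRDC1 was at 0.17, and without siNC replicates 1 and 3 in turn ARRDC1 was at 0.20 and 0.02. Of the 13 neighbours found, 7 were tested, 4 higher and 3 lower in siEHMT2 (median 0.09). Limma called none, and 1 of the 7, ZBTB12, had an unadjusted p under 0.05, against 18.8% of all tested rows.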

How the data were processed

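Total RNA of SK-NEP-1 cells was the input of NEBNext Ultra libraries, per the labels' protocols. The titles all name SK-NEP-1, while the cell line field runs on in number; the titles were followed. The authors deposited FPKM per gene and library. Per the submitters' processing notes, StringTie 2.2.0, HISAT2 2.2.1, fastp, SAMtools 1.4.1 and the build hg19 were used, with roles not stated and the annotation not given in the sources used here. Depth is unknown and whole reads were not recovered, so no count model was used.

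After removal of rows averaging under 1 FPKM, log2(FPKM + 1) was fitted in R 4.3.3 by limma 3.58.1 with a mean-variance trend, no covariates and Benjamini-Hochberg adjustment over 12859 rows, threshold 0.05. The pseudocount of 1 understates fold changes of low genes. Differences between EHMT2 and partners used exact permutations. Simulated data with known changes were used to check the limma fit. The members and lists were chosen with earlier results of these data known. Named were the 5 members, the 4 tested genes of each list with the smallest p, and the closest profiles (5 for EHMT2, 2 for each partner, of which 1 is not reported here). Markers and the highest germline gene were named beyond that. All but 3 list symbols were found, 1 (JHDM1D) by synonym. GC content (median over transcripts, 91.2% of tested rows), lengths, gene types and transcript sequences came from GENCODE release 29, and gene order from RefSeq, on another build, so no genome coordinates are given. Alternatives were left-out libraries, GC correction (loess span 0.5), a replicate block, array weights, no trend, and other scalings, filters and pseudocounts.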

Additional observations from a re-analysis of the deposited data

How the results depend on the processing

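The 5 genes were fitted under 20 alternatives. EHMT2 stayed lower in all of them (−1.67 to −1.08, limma adjusted p from 0.000364 to 0.259). It passed with a minimum mean of 5 FPKM (−1.27, where fewer genes are tested), array weights (−1.56), GC correction (−1.37), without siEHMT2 replicate 3 (−1.58) and without both libraries numbered 3 (−1.67). EHMT1 was at 0.08 to 0.20, ZNF644 at −0.44 to −0.17, and neither passed. WIZ was at 0.10 to 0.25 and passed with array weights (0.24). CDYL was at −0.24 to 0.01 and turned to 0.01 and 0.006 without siEHMT2 replicate 2 or siNC replicate 1. With 1 library left out, EHMT2 ranged from −1.58 to −1.08, EHMT1 from 0.16 to 0.20, WIZ from 0.15 to 0.25, ZNF644 from −0.44 to −0.17 and CDYL from −0.15 to 0.01. The contrasts of EHMT2 with its partners stayed negative in all 14 alternatives run on each.

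The number of genes limma called was 71 (44 higher and 27 lower in siEHMT2). It was 0 without a filter (3641 at an unadjusted p under 0.05), 134 with a minimum of 5 FPKM, 31 with the same FPKM sum (10 higher and 21 lower), 30 without a trend, 3797 with array weights and 1890 without both libraries numbered 3. With 1 library left out it ranged from 0 to 172: leaving out siEHMT2 replicates 1, 2 and 3 in turn gave 5, 0 and 172 calls, and the same for siNC gave 0, 1 and 4. The cause was not tested. The replicate number as a block gave 0 calls (1845 at an unadjusted p under 0.05), also with GC correction (0, with 1596), and EHMT2 had an adjusted p of 0.255 and 0.223 there. Deviations of libraries with the same number correlated at −0.35, 0.09 and −0.39, and 1 of 6 libraries correlated best with its own number. No pairing by number was visible in these values, which rest on 3 libraries per group. Whether the samples were prepared in pairs was not tested.

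Over the 29 genes chosen by the naming rule beside the members, 11 of 570 values changed sign, all in genes near 0: KDM4B (−0.0079 with GC correction, with or without the block, −0.03 without siEHMT2 replicate 3, −0.09 without both libraries numbered 3), ARRDC1 (−0.03 with array weights, −0.0029 with GC correction, with or without the block, −0.07 without both libraries numbered 3), HMOX1 (0.00076) and TYW1B (0.0024) without siEHMT2 replicate 2, and TYW1B (0.02) without siNC replicate 1. With 1 library left out, KDM4B ranged from −0.03 to 0.23, ARRDC1 from 0.01 to 0.20, RASAL3 from −0.47 to −0.20, SUV39H2 from −0.32 to −0.10, TRIM28 from −0.24 to −0.11, HMOX1 from −0.16 to 0.00076 and TYW1B from −0.14 to 0.02. DPYSL2 missed the threshold in 8 alternatives, among them any left-out library but siEHMT2 replicate 3.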
